A study of Mus musculus with 10 samples.

Results

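Genes of NRF2 and antioxidant defence were examined in RNA-seq of mouse bone marrow. The 10 genes, chosen by name, were Nfe2l2, Hmox1, Nqo1, Gclc, Gclm, Txnrd1, Srxn1, Gpx1, Gpx4 and Prdx2, out of 55359 genes in the table, and all 10 passed the filter on low values that 18742 genes passed. The RNA came from lineage-negative (Lin-) bone marrow cells, which are left when cells with surface markers of mature blood lineages have been removed. The study's methods state that these cells were sorted, and its list of reagents holds a lineage depletion kit. The groups were 5 libraries of genotype Dhx9f/f (WT) and 5 of genotype Dhx9f/f;MX1 (cKO), and both carry the floxed Dhx9 alleles. The titles number the libraries of a group as replicates, and the methods of the study describe replicates in general as separate mice. In cKO mice the Mx1 promoter, which responds to interferon, drives Cre, and deletion follows injection of poly(I:C), which raises interferon. Mx1-Cre acts in many tissues besides blood cells. The study's methods time the analysis of mice in general from the first poly(I:C) injection. A legend on transplantation has donors of both genotypes collected after such an injection. Legends on blood counts, flow cytometry and colony assays also time WT and cKO mice from the first injection. None of these states whether the sequenced WT mice received poly(I:C). Where they did not, its effect and that of the genotype cannot be told apart. The labels give neither age nor sex, and they enter the cKO genotype as a knock down. Values are FPKM, the fragments of a gene scaled to its length and to the size of the library, and the depth read from them was 15044747 to 18713097 fragments for WT and 13840665 to 17194321 for cKO.

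Dhx9, the targeted gene (ENSMUSG00000042699), was looked at first. Its level was 69.7 ± 2.84 FPKM in WT and 139.9 ± 12 FPKM in the libraries labelled cKO (SD, n = 5 each), and every library labelled cKO lay above every WT library. This is a log2 fold change of 1.0 (limma adjusted p = 1.39e-05; exact two-sided permutation test p = 0.00794, the smallest that 5 against 5 allow). The targeted gene thus goes against the labels, and a value per gene does not show which exons were read. The text therefore speaks of libraries labelled cKO. The study reports reduced DHX9 in marrow cells of the cKO genotype by qRT-PCR and Western blot. It also reports fewer stem and progenitor cells by flow cytometry. These are other measures than RNA levels in Lin- cells. Here, of 6 progenitor markers described below, 5 fell, against 28.3% of all genes, and 0 rose, against 16.7%. The cause of the Dhx9 level was not tested. Sex-linked RNA differed between groups as well. Xist exceeded 99 FPKM in WT libraries 3, 4 and 5 and was at most 0.09 FPKM in the remaining libraries, while Ddx3y, on the Y chromosome, was at least 19.66 FPKM in these and at most 0.05 FPKM in WT libraries 3, 4 and 5. Results are therefore also given for WT libraries 1 and 2 alone against all libraries labelled cKO. Library 1 of those labelled cKO stood apart from libraries 2 to 5 in Slc7a11, Chac1, Sesn2 and Me1, among other genes described below, and is left out in turn there. Over genes that average 20 fragments or more, the chi-square per degree of freedom between it and each of libraries 2 to 5 was 68.2 to 70.8, against 16.9 to 48.0 among libraries 2 to 5.

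NRF2, the product of Nfe2l2, is a transcription factor held at a low level by KEAP1, which feeds it to a ubiquitin ligase. Oxidants and electrophiles modify KEAP1, NRF2 then builds up, pairs with a small MAF protein and binds the antioxidant response element of its target genes. Because this control acts on the protein, the level of Nfe2l2 mRNA is not a measure of NRF2 activity. Typical targets make glutathione (Gclc, Gclm), reduce quinones (Nqo1), break down haem (Hmox1), recycle thioredoxin (Txnrd1) and repair peroxiredoxins (Srxn1). Hematopoietic stem cells are known to keep reactive oxygen species low. Red cell precursors carry large amounts of peroxiredoxin 2, glutathione peroxidase 1 and catalase, and macrophages that take up old red cells make heme oxygenase 1.

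The antioxidant response element core TGACNNNGC was searched on both strands from 250 bases before to 50 after the start of each gene's canonical transcript in GRCm39. It was present for 3 of the 10 genes and for 12.9% of the 18622 tested genes with a start, as well as for 14 of 94 other genes of the pathway (14.9%). From 1000 bases before the start, it was present for 5 of the 10 genes and for 31.4% of all. A match describes letters and not a bound site, and a gene without a match may hold one outside the window. Sites are shown for the 3 genes and, for comparison, for Prdx1 and Sod1 from the 14 other genes. Prdx1 and Sod1 did not pass in the comparison below, whereas Sesn2, which also holds a core in this window, was called higher. Each site is given on the strand that reads the core, with the core in capitals. That of Gclm lies at chr3:122039062-122039090 (minus strand), that of Txnrd1 at chr10:82694938-82694966 (minus strand) and that of Srxn1 at chr2:151947462-151947490 (minus strand). The site of Prdx1 is at chr4:116542653-116542681 and that of Sod1 at chr16:90017303-90017331, both on the minus strand. All but that of Srxn1, which begins 29 bases from the start within the transcribed part, lie before the start, at 54 (Gclm), 65 (Txnrd1), 78 (Prdx1) and 95 bases (Sod1).
Gclm: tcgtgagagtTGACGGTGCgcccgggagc
Txnrd1: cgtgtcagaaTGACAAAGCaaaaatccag
Srxn1: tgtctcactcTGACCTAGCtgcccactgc
Prdx1: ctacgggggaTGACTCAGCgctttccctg
Sod1: ggattgtcacTGACTTTGCacagcgcgcc

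Expression of the 10 genes spanned a wide range on the FPKM scale. In WT, Gpx1 had the highest level at 598.9 ± 62.1 FPKM (SD, n = 5), followed by Prdx2 at 135.1 ± 22.8 FPKM. Then came Gpx4 (60.7 ± 6.80 FPKM), Gclc (46.2 ± 5.2 FPKM), Nfe2l2 (38.4 ± 1.43 FPKM) and Gclm (36.3 ± 4.44 FPKM), each overlapping its neighbour in this order. Txnrd1 was at 19.8 ± 2.34 FPKM, apart from both neighbours. Hmox1 (12.2 ± 3.89 FPKM) and Nqo1 (9.88 ± 1.35 FPKM) overlapped, and Srxn1 was lowest at 4.82 ± 1.49 FPKM. In the libraries labelled cKO the order was similar, except that Gclm stood above Nfe2l2 without overlap and Nqo1 (19.6 ± 2.56 FPKM) had a higher mean than Hmox1 (7.45 ± 6.29 FPKM), with overlap.

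The groups were compared with limma on log2(FPKM + 0.1), which understates the change of low genes. A gene is said to rise or fall at a Benjamini-Hochberg adjusted p under 0.05 over all 18742 genes, and is called when its fold change is also at least 2, the thresholds of the study. By this rule 0 of the 10 genes were called higher, against 4.6% of all genes tested, and 0 were called lower, against 16.8%. On adjusted p alone, 6 of 10 rose (Nqo1, Gclc, Gclm, Txnrd1, Gpx4 and Prdx2), against 16.7% of all genes, and 0 fell, against 28.3%. At an unadjusted p under 0.05 limma gave 6 higher and 0 lower as well, and no other tool was run. The groups did not overlap for 4 of the 10 (Nqo1, Gclc, Gclm and Gpx4), all higher in the libraries labelled cKO, against 10.6% of all genes higher and 21.6% lower. The median log2 fold change was 0.35 for the 10 genes and -0.11 for all genes tested. The 10 genes were chosen with earlier results of these data known. All genes tested include low ones, down to a mean of 0.1 FPKM, so their shares are not a background matched in level. Bulk RNA cannot tell fewer cells of a type from less RNA per cell, for these genes as for the markers given further on.

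**Figure D1:**
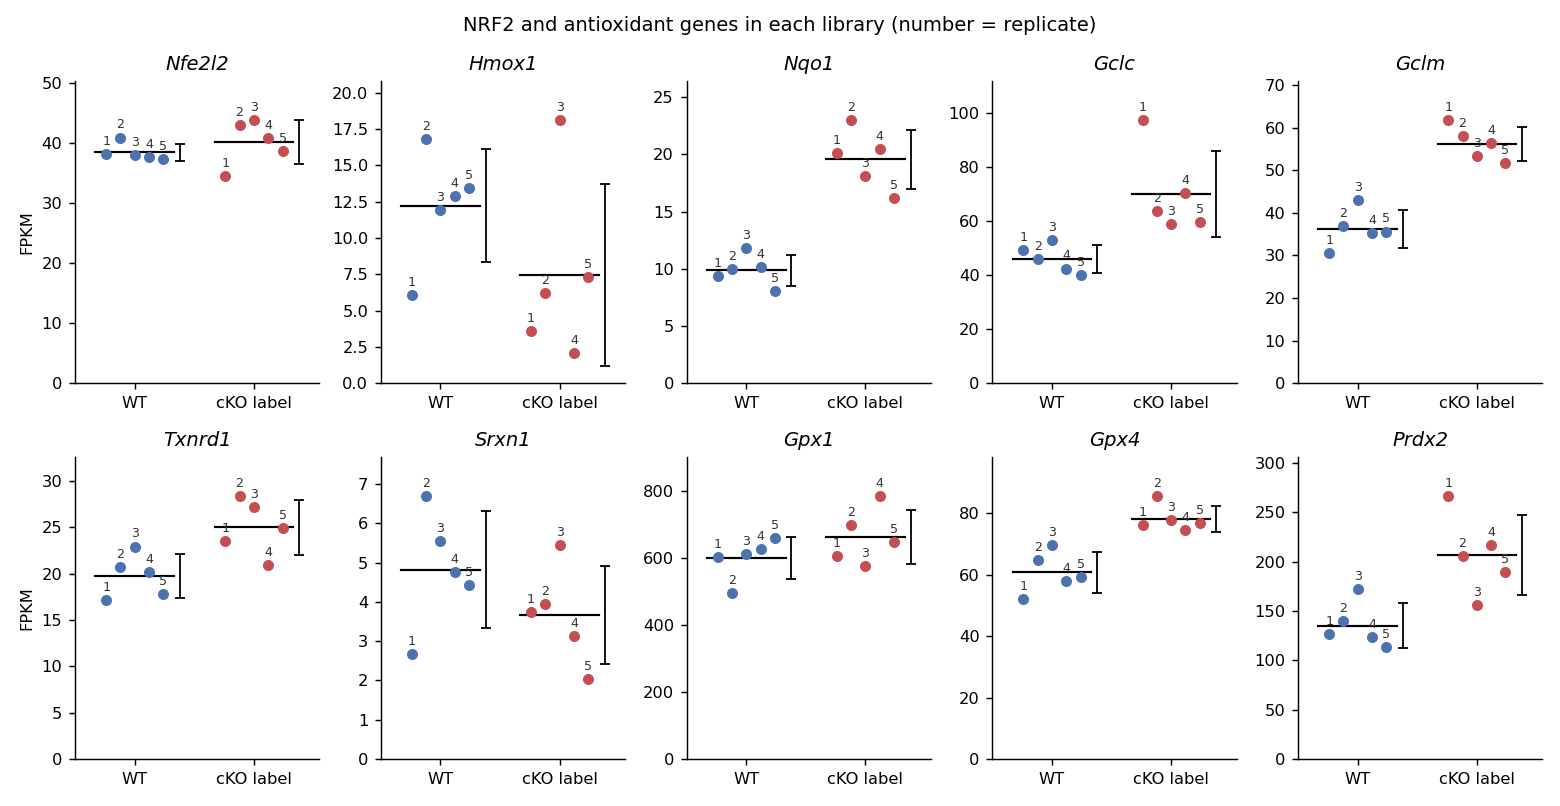
FPKM of each of the 10 genes in the 5 WT libraries (blue) and the 5 libraries labelled cKO (red), with the replicate number at each point, the group mean as a line and the SD as a bar. Nqo1, Gclc, Gclm and Gpx4 show no overlap between groups, Nfe2l2 and Gpx1 overlap, and Hmox1 spreads from 2.07 to 18.08 FPKM among the libraries labelled cKO.

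The regulator itself differed little. Nfe2l2 (ENSMUSG00000015839; chromosome 2, 75504739 to 75534985, minus strand) was at 38.16, 40.92, 38.05, 37.59 and 37.41 FPKM from WT library 1 to WT library 5 and at 34.57, 43.06, 43.76, 40.86 and 38.72 FPKM across those with the cKO label. The lowest value of all 10 libraries was that of library 1 labelled cKO, and the groups overlapped. Its log2 fold change was 0.06 with a 95% interval of -0.094 to 0.21 (limma adjusted p = 0.516), so a change of 2-fold lay outside the interval. It was -0.015 with quantile normalization, 0.17 with median-ratio scaling (adjusted p = 0.0731) and 0.11 without library 1 labelled cKO (adjusted p = 0.104). The 5 genes whose log2 levels were most like those of Nfe2l2 over the 10 libraries, among 12353 genes that average 1 FPKM or more, were Mindy3 (Pearson r = 0.967), Toe1 (0.963), Amz2 (0.949), Nfe2l1 (0.939) and Ngrn (0.939). These r describe values from the same 10 libraries, picked from many genes. Nfe2l1 encodes a factor related to NRF2, known for controlling proteasome genes.

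Both subunits of glutamate-cysteine ligase, the enzyme of the rate-limiting step of glutathione synthesis, rose. Gclc, the catalytic subunit (ENSMUSG00000032350; chromosome 9, 77661797 to 77701770, plus strand), was at 49.33, 45.94, 53.06, 42.5 and 40.08 FPKM from WT library 1 to WT library 5 and at 97.37, 63.81, 58.85, 70.39 and 59.63 FPKM across those with the cKO label. Library 1 labelled cKO was far above the rest of its group. The log2 fold change was 0.58 (SE 0.137, limma adjusted p = 0.00539) and 0.45 (adjusted p = 0.00239) without that library. Gclm, the modifier subunit (ENSMUSG00000028124; chromosome 3, 122039126 to 122065061, plus strand), was at 30.62, 36.96, 42.98, 35.19 and 35.62 FPKM in WT and at 61.7, 58.13, 53.39, 56.39 and 51.6 FPKM across the cKO-labelled libraries. The groups did not overlap, and the log2 fold change was 0.64 (SE 0.0878, limma adjusted p = 2.73e-04). The ratio of Gclm to Gclc FPKM ran from 0.621 to 0.889 in WT and from 0.634 to 0.911 in the libraries labelled cKO, and in each group library 1 had the lowest ratio. With WT libraries 1 and 2 alone, Gclm kept its rise (log2 fold change 0.74, adjusted p = 0.00776), whereas Gclc, at 0.53, no longer passed (adjusted p = 0.0833; range over 21 alternatives 0.00239 to 0.0833). Gclc did not pass with a covariate for Xist either (log2 fold change 0.53, limma adjusted p = 0.0572).

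Nqo1 had the largest rise of the 10 genes. It encodes NAD(P)H quinone dehydrogenase 1, which reduces quinones in a single step without a radical in between (ENSMUSG00000003849; chromosome 8, 108113835 to 108129934, minus strand). The WT libraries held 9.39, 9.94, 11.83, 10.15 and 8.09 FPKM, and those labelled cKO 20.1, 22.96, 18.13, 20.48 and 16.18 FPKM. Each library labelled cKO was above each WT library, with a fold change of 1.97 and a log2 fold change of 0.98 (SE 0.117, limma adjusted p = 1.36e-04; at most 0.00735 over 21 alternatives). This is just short of the 2-fold limit, so Nqo1 was called with median-ratio scaling (1.09), quantile normalization (1.06), a covariate for Xist (1.0), WT libraries 1 and 2 alone (1.0), and without WT library 3 (1.05), library 3 labelled cKO (1.0) or library 5 labelled cKO (1.05).

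Hmox1, which encodes the inducible heme oxygenase that opens the haem ring, did not pass (ENSMUSG00000005413; chromosome 8, 75820241 to 75827217, plus strand). WT libraries were at 6.1, 16.81, 11.93, 12.88 and 13.4 FPKM, and those labelled cKO at 3.59, 6.21, 18.08, 2.07 and 7.28 FPKM. Library 3 labelled cKO held the highest value of all 10 libraries, while the rest of the group lay at or below 7.28 FPKM, and WT library 1 was within their range. The log2 fold change was -1.01 with a 95% interval of -2.09 to 0.083 (limma adjusted p = 0.121; 0.0143 to 0.479 over 21 alternatives). Without library 3 labelled cKO the gene was called lower, with a log2 fold change of -1.42 and an adjusted p of 0.0143, while without library 4 labelled cKO the log2 fold change was -0.65 (adjusted p = 0.258). The libraries held roughly 54 to 510 Hmox1 fragments each, and 54 is the lowest such number among the 10 genes.

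**Figure D2:**
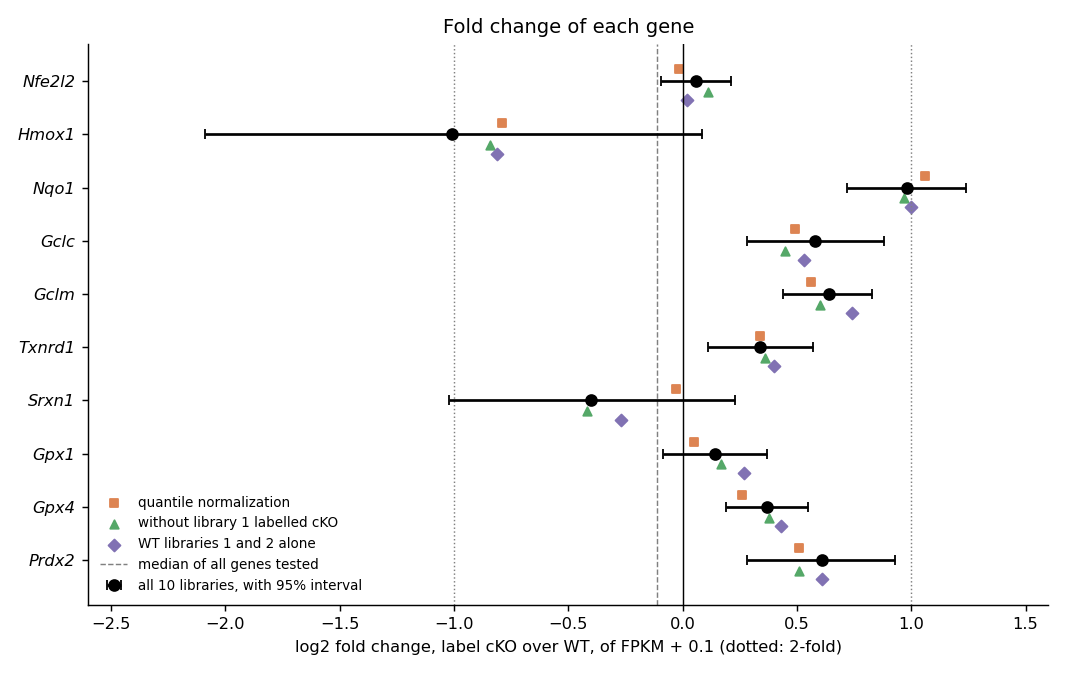
Log2 fold change of FPKM + 0.1, label cKO over WT, for each of the 10 genes (black, with the 95% interval of limma), beside quantile normalization, the fit without library 1 labelled cKO and WT libraries 1 and 2 alone. The intervals of Nqo1, Gclc, Gclm, Txnrd1, Gpx4 and Prdx2 lie above 0, and that of Hmox1 runs from -2.09 to 0.083.

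Of the thioredoxin branch, Txnrd1 rose and Srxn1 did not pass. Txnrd1 encodes the cytosolic selenoenzyme that reduces thioredoxin with NADPH (ENSMUSG00000020250; chromosome 10, 82669785 to 82733546, plus strand). It was at 17.16, 20.74, 22.94, 20.15 and 17.77 FPKM in WT and at 23.58, 28.38, 27.21, 20.95 and 24.98 FPKM across the cKO-labelled libraries. Library 4 labelled cKO lay within the WT range. The log2 fold change of 0.34 (SE 0.104, limma adjusted p = 0.0203; 0.00523 to 0.0748 over 21 alternatives) was, as deposited, the smallest of the 6 rises. It no longer passed without WT library 1 (adjusted p = 0.05), WT library 5 (0.0523) or library 2 labelled cKO (0.0544), with a covariate for Xist (0.0571) or with WT libraries 1 and 2 alone (0.0748). In these last settings the log2 fold change was larger, at 0.40 in both. Sulfiredoxin, encoded by Srxn1, restores peroxiredoxins that have been oxidized past their normal cycle (ENSMUSG00000032802; chromosome 2, 151947436 to 151957687, plus strand). Its level was 2.66 to 6.69 FPKM in WT and 2.03 to 5.44 FPKM across the cKO-labelled libraries, with a log2 fold change of -0.40 and a 95% interval of -1.02 to 0.23 (limma adjusted p = 0.280). Thus of these 3 genes with a core element in the window from 250 bases before the start, Gclm and Txnrd1 rose and Srxn1 did not pass. Of the 7 genes without one there 4 rose. These 7 may hold an element farther away, as Gpx4 has a core 890 bases before the start and Nfe2l2 one at 262 bases. The part of the element in the rises was not tested.

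Among the peroxidases, Gpx4 and Prdx2 rose and Gpx1 did not pass. Glutathione peroxidase 4 reduces lipid peroxides within membranes and is the main guard against ferroptosis (Gpx4, ENSMUSG00000075706; chromosome 10, 79883000 to 79892273, plus strand). WT libraries held 51.99, 64.92, 69.71, 57.88 and 59.2 FPKM, and those labelled cKO 76.28, 85.6, 77.78, 74.63 and 76.92 FPKM. The groups did not overlap, and the log2 fold change was 0.37 (SE 0.0796, limma adjusted p = 0.00324). With WT libraries 1 and 2 alone it was 0.43 (adjusted p = 0.025). Peroxiredoxin 2, abundant in red cells, removes hydrogen peroxide (Prdx2, ENSMUSG00000005161; chromosome 8, 85693354 to 85702350, plus strand). It was at 126.81, 140.02, 172.12, 123.14 and 113.2 FPKM in WT and at 266.33, 205.74, 155.61, 216.58 and 189.07 FPKM across the cKO-labelled libraries. Library 1 labelled cKO was highest, and library 3 labelled cKO lay below WT library 3. The log2 fold change was 0.61 (SE 0.146, limma adjusted p = 0.00616) and 0.51 (adjusted p = 0.00980) without library 1 labelled cKO. Prdx2 passed narrowly with WT libraries 1 and 2 alone (log2 fold change 0.61, limma adjusted p = 0.0486) and with a covariate for Xist (0.61, adjusted p = 0.0451). Gpx1, the cytosolic glutathione peroxidase (ENSMUSG00000063856; chromosome 9, 108216102 to 108217546, plus strand), ranged from 494.61 to 658.86 FPKM in WT and from 576.12 to 783.62 FPKM across the cKO-labelled libraries. Its log2 fold change was 0.14 with a 95% interval of -0.085 to 0.37 (limma adjusted p = 0.290). Values of Prdx2 and Gpx4 are uncertain in that 2 pseudogenes are named for each, and pseudogenes under other names were not counted. Prdx2 also overlaps Junb and Rnaseh2a on the opposite strand. Gclm and Txnrd1, among others of the 10 genes, overlap other genes as well. The sources used here do not state whether fragments were counted by strand.

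Fold changes depended on how the libraries were scaled. Taken over every gene tested, the median log2 fold change shifted by 0.10 with median-ratio scaling and by 0.21 with quantile normalization, and the latter changed the share of calls that were higher from 21.5% to 41.3% (1581 genes higher and 2245 lower, in place of 862 and 3153). Relative to the median of all genes, the log2 fold change of Nqo1 was 1.09 as deposited and 0.97 with quantile normalization, that of Gclm 0.74 and 0.46, that of Prdx2 0.71 and 0.41, and that of Gpx4 0.48 and 0.16. All 6 genes that rose passed under each of the 3 scalings tried.

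Other genes of the pathway were counted from 9 lists of 99 genes, of which 94 were tested. Gsta1 and Gpx2 were listed at 0 in all libraries, and Gsta3, Sod3 and Akr1b8 were under the filter. Of the 94, 34 rose and 28 fell, and 11 were called higher and 13 lower, beside the percentages of all genes given above. Their median log2 fold change was 0.12.

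Regulators and partners of NRF2 showed 2 genes that rose and 5 that fell of 14 tested, with 0 called higher and 2 called lower. Keap1 was at 17.4 ± 0.833 FPKM in WT and 16.4 ± 0.894 FPKM across the cKO-labelled libraries (SD, n = 5 each), with a log2 fold change of -0.086 (limma adjusted p = 0.289) that was 0.020 with median-ratio scaling. BACH1, a haem-sensing repressor that competes for the same element, had less mRNA. Bach1 was at 15.23, 14.84, 14.25, 15.02 and 16.29 FPKM in WT and at 13.32, 9.89, 9.31, 7.97 and 8.75 FPKM across the cKO-labelled libraries. Here library 1 labelled cKO was nearest to WT, and the groups did not overlap (log2 fold change -0.64, limma adjusted p = 0.00170). The related repressor Bach2, known from B cells, fell from 1.10 ± 0.143 to 0.242 ± 0.116 FPKM (SD, n = 5 each). Nfe2, the most abundant gene of the list in WT and a factor of erythroid and megakaryocytic cells, went from 51.8 ± 5.68 to 39.5 ± 7.91 FPKM. Its limma adjusted p was 0.0298, and it no longer passed in 10 of 21 alternatives, with an adjusted p of 0.0794 under median-ratio scaling (log2 fold change -0.30, against -0.40 as deposited) and 0.177 with WT libraries 1 and 2 alone (-0.38). Nfe2l3 was called lower at under 0.5 FPKM in every library, and it no longer passed in 10 of 20 alternatives, one being the fit without library 1 labelled cKO (limma adjusted p = 0.0510).

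**Figure D3:**
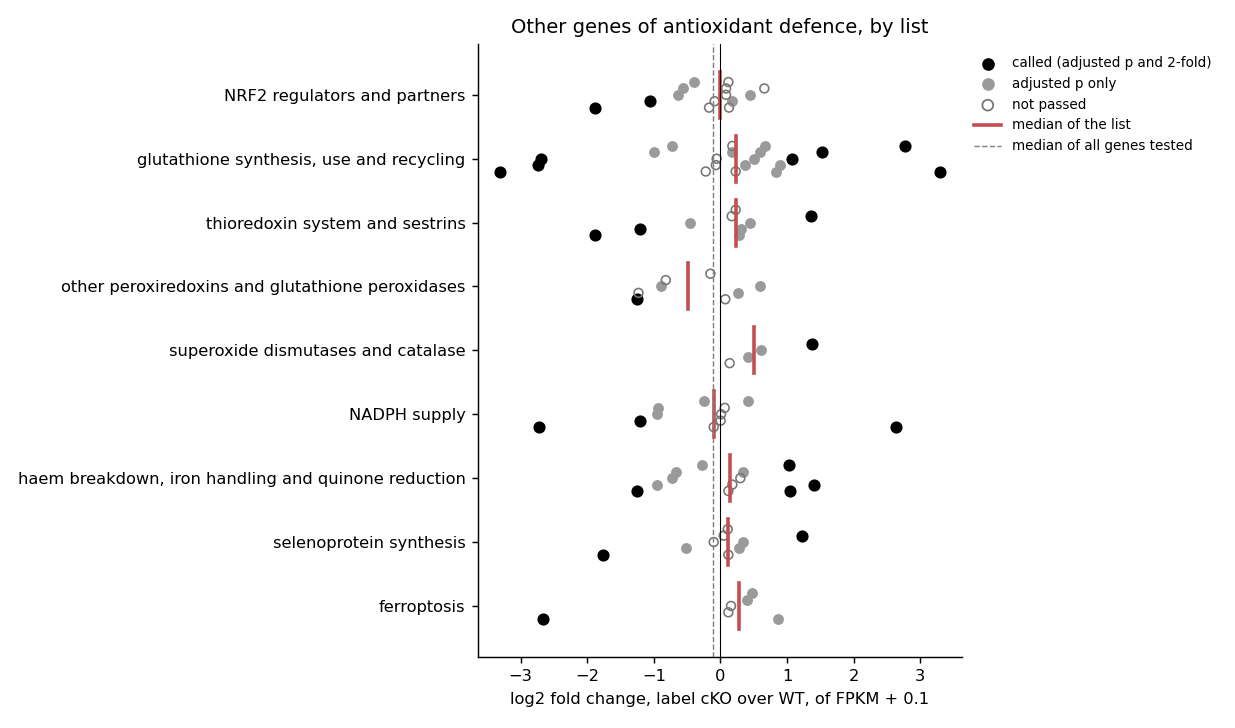
Log2 fold change of FPKM + 0.1, label cKO over WT, of the 94 other genes tested, by list, with called genes in black, genes that passed on adjusted p only in grey, the rest open, and the median of each list as a red bar. Most lists hold called genes on both sides of 0, such as Slc7a11 (3.30) and Mgst1 (-3.31) among glutathione genes.

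Glutathione genes moved in both directions, with 11 that rose, 5 that fell and 5 that did not pass of 21 tested. Slc7a11, the cystine carrier of system xc-, was at 0.05, 0.03, 0.06, 0.06 and 0.07 FPKM in WT and at 0.16, 2.34, 2.69, 1.97 and 2.02 FPKM across the cKO-labelled libraries. Library 1 labelled cKO was thus above all WT libraries but far below its own group. The log2 fold change was 3.30 (limma adjusted p = 0.00103), and 3.93 (adjusted p = 6.13e-06) without that library. It was 1.32 with a pseudocount of 1 and 4.43 with 0.01. Its partner chain in the carrier, Slc3a2, which was named after its values were seen, was at 27.18 to 36.95 FPKM in WT and at 37.98, 76.65, 81.89, 68.7 and 67.19 FPKM across the cKO-labelled libraries. Again library 1 was next to WT. Chac1, an enzyme that breaks glutathione down, was at 0.2 to 0.7 FPKM in WT and at 0.31, 6.75, 8.34, 2.9 and 7.33 FPKM across the cKO-labelled libraries, so that library 1 was within the WT range. The log2 fold change of Chac1 was 2.78 (limma adjusted p = 0.0106) and 3.56 without library 1 labelled cKO (adjusted p = 9.62e-05), and the call was lost with WT libraries 1 and 2 alone (log2 fold change 2.31, adjusted p = 0.169). Gstt1, a glutathione S-transferase, rose from 0.634 ± 0.232 to 2.04 ± 0.760 FPKM (SD, n = 5 each). Glutathione reductase, Gsr, which had the highest mean of the list over all 10 libraries though not within either group, fell from 98.4 ± 13.8 to 59.5 ± 6.64 FPKM with no overlap (log2 fold change -0.72, limma adjusted p = 4.55e-04). The transferases called lower were Mgst1 (20.5 ± 5.39 to 2.70 ± 2.14 FPKM), Gstm1 (105.4 ± 22.9 to 20.9 ± 15.8 FPKM) and Mgst2 (6.81 ± 1.57 to 1.0 ± 0.403 FPKM).

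**Figure D4:**
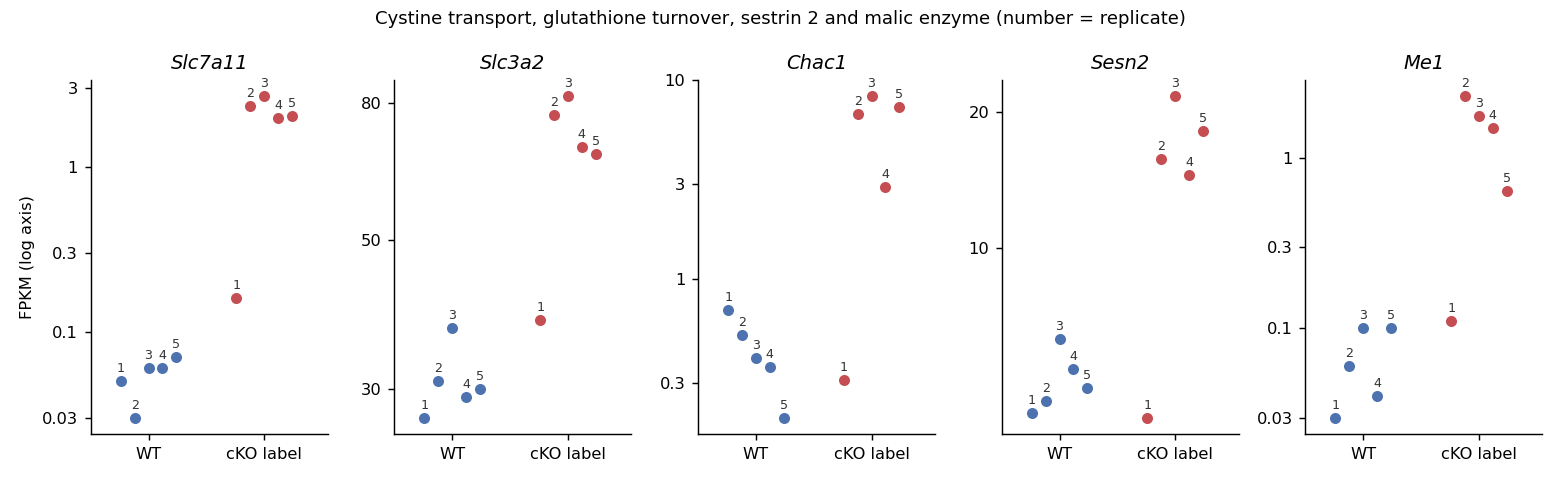
FPKM on log axes of Slc7a11, Slc3a2, Chac1, Sesn2 and Me1 in the 5 WT libraries (blue) and the 5 libraries labelled cKO (red), with replicate numbers. Libraries 2 to 5 labelled cKO lie above all WT libraries in each panel, and library 1 lies near WT, at 0.16 FPKM for Slc7a11 and 4.2 FPKM for Sesn2.

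The thioredoxin system and the sestrins had 4 genes that rose and 3 that fell of 9. Txn1, thioredoxin itself and the most abundant of them, rose from 189.8 ± 9.97 to 236.1 ± 18.1 FPKM with no overlap (log2 fold change 0.31, limma adjusted p = 0.00296). Txnip, which binds and inhibits thioredoxin, fell from 99.9 ± 30 to 41.9 ± 7.36 FPKM (log2 fold change -1.21, limma adjusted p = 7.50e-04). The sestrins went apart. Sesn2 was at 4.3 to 6.29 FPKM in WT and at 4.2, 15.77, 21.75, 14.55 and 18.17 FPKM across the cKO-labelled libraries, with library 1 once more at the level of WT, and its log2 fold change of 1.36 (limma adjusted p = 0.0120) became 1.76 without it. With WT libraries 1 and 2 alone Sesn2 had a log2 fold change of 1.54 and no longer passed (limma adjusted p = 0.0874). Sesn3 fell from 1.69 ± 0.453 to 0.390 ± 0.151 FPKM.

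Of 8 other peroxiredoxins and glutathione peroxidases, 2 rose and 2 fell. Among those that rose, Prdx4 (limma adjusted p = 0.0415) passed in 5 of 21 alternatives. Prdx3, the mitochondrial peroxiredoxin and the most abundant, rose from 125.1 ± 17.7 to 189.8 ± 23.1 FPKM with no overlap (log2 fold change 0.60, limma adjusted p = 0.00116). Prdx1, its cytosolic relative, whose core element is shown above, was at 85.8 ± 4.88 and 77.3 ± 5.86 FPKM and did not pass (log2 fold change -0.15, limma adjusted p = 0.0852; it passed at 0.00758 with quantile normalization). The secreted peroxidase Gpx3 was called lower, from 6.70 ± 2.02 to 2.79 ± 1.11 FPKM, but not with WT libraries 1 and 2 alone (log2 fold change -1.08, limma adjusted p = 0.0559). Among superoxide dismutases and catalase, 3 of 4 rose and 0 fell. Ccs, the chaperone that loads copper into superoxide dismutase 1, was called higher, with 11.52 to 15.25 FPKM in WT and 21.73, 44.59, 32.2, 44.76 and 37.61 FPKM across the cKO-labelled libraries (log2 fold change 1.38, limma adjusted p = 2.17e-04). Sod2, the mitochondrial dismutase, rose from 10.1 ± 0.987 to 15.4 ± 1.51 FPKM and catalase (Cat) from 50.7 ± 6.36 to 67.7 ± 8.67 FPKM. Sod1 was at 43.4 ± 1.43 and 48.1 ± 5.45 FPKM and did not pass (limma adjusted p = 0.170; 0.0206 with median-ratio scaling).

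NADPH supplies the electrons for glutathione and thioredoxin reduction. Of 11 genes for its supply, 2 rose and 5 fell. Taldo1 of the pentose phosphate pathway, the most abundant, was at 183.3 ± 9.28 and 184.6 ± 10.7 FPKM (log2 fold change 0.01, limma adjusted p = 0.902), with a sign that turned under 2 of 3 scalings. Cytosolic isocitrate dehydrogenase, Idh1, fell from 37.0 ± 6.22 to 6.59 ± 4.37 FPKM (log2 fold change -2.72, limma adjusted p = 3.81e-04), and the mitochondrial transhydrogenase Nnt from 0.570 ± 0.120 to 0.192 ± 0.0476 FPKM. Malic enzyme 1, Me1, was at 0.03 to 0.1 FPKM in WT and at 0.11, 2.3, 1.76, 1.5 and 0.64 FPKM across the cKO-labelled libraries. Library 1 labelled cKO was again beside WT. As WT libraries hold few fragments of Me1, its log2 fold change of 2.64 (limma adjusted p = 0.00405) depends on the pseudocount and was 0.98 with a pseudocount of 1. Without library 1 labelled cKO it was 3.21 (adjusted p = 1.33e-04). With WT libraries 1 and 2 alone Me1 had a log2 fold change of 2.82 and no longer passed (limma adjusted p = 0.0583).

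Haem breakdown, iron handling and quinone reduction gave 4 genes that rose and 5 that fell of 12 tested. Fth1, the ferritin heavy chain that oxidizes and stores iron, was at 220.73 to 305.59 FPKM in WT and at 491.23, 530.55, 404.49, 696.6 and 488.78 FPKM across the cKO-labelled libraries (log2 fold change 1.05, limma adjusted p = 2.10e-04). The light chain Ftl1, the most abundant gene of the list in WT, was at 409.7 ± 40.2 and 444.3 ± 35.5 FPKM and did not pass (adjusted p = 0.285). Blvrb, a biliverdin reductase, rose from 37.0 ± 5.40 to 75.6 ± 11.1 FPKM, and Abcg2, an exporter of porphyrins, from 7.49 ± 1.46 to 20.1 ± 4.63 FPKM, both with no overlap. Cbr3, a carbonyl reductase, was called lower at under 0.7 FPKM (log2 fold change -1.26), and did not pass, among other settings, without WT library 4 (log2 fold change -1.14, limma adjusted p = 0.0582). Of 9 genes of selenoproteins and their synthesis, 3 rose and 2 fell. Selenow rose from 76.1 ± 10.7 to 180.4 ± 33.9 FPKM, and Selenop, the plasma carrier of selenium, fell from 29.8 ± 3.56 to 9.97 ± 5.02 FPKM, though it did not pass with WT libraries 1 and 2 alone (log2 fold change -1.83, limma adjusted p = 0.0567). Of 6 genes linked to ferroptosis, 3 rose and 1 fell. The one that fell was Alox15, a lipoxygenase, from 11.9 ± 5.48 to 2.08 ± 1.29 FPKM, and Lpcat3, the most abundant, was at 26 ± 2.30 and 28.9 ± 1.58 FPKM (limma adjusted p = 0.0992).

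Markers of blood cell types moved with the same comparison. Single markers of mature cells were low, as Cd3e and Ly6g were under 0.5 FPKM as group means, and others were not, as Lyz2 was at 694.1 ± 219.8 FPKM in WT and 47.9 ± 51.5 FPKM in the libraries labelled cKO. Of the T cell and neutrophil markers, Ly6g, Cd3d, Cd4 and Cd8a were at 0 in some library. The NK cell genes Klrd1 and Ncr1 were also at 0 in some library but reached 4.78 and 1.81 FPKM in WT. Of 15 erythroid markers, 14 rose (Klf1 passed in the fewest alternatives, 13 of 21) and 0 fell. Their summed level was 1526, 1465, 2454, 1369 and 1190 FPKM from WT library 1 to WT library 5 and 4536, 4314, 3864, 4264 and 3074 FPKM across those with the cKO label, with Car2 the most abundant in WT and 0 markers at 0. WT library 3, the highest of its group in this sum, was also the highest WT library for the same 6 genes that rose, Nqo1, Gclc, Gclm, Txnrd1, Gpx4 and Prdx2. Library 5 labelled cKO, lowest in its group in this sum, was lowest in its group for Nqo1 and Gclm, whereas Gclc and Prdx2 were lowest in library 3 and Txnrd1 and Gpx4 in library 4. The part of erythroid cells in these rises was not tested.

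Of 14 monocyte and macrophage markers, 0 rose and 13 fell (Cd14 passed in 16 of 21 alternatives, and Vcam1 and Itgam in 19 each). The sum was 1547, 935.1, 899.4, 1318 and 1559 FPKM in WT and 73.8, 23.3, 171.6, 12.2 and 265.5 FPKM across the cKO-labelled libraries. Lyz2 was the most abundant, and 0 of the markers were at 0 in any library. Hmox1 was highest among the libraries labelled cKO in libraries 3 and 5, which also had the highest sums, and lowest in library 4, which had the lowest. In WT, however, library 1 was lowest for Hmox1 and among the highest for this sum. Of the 14 markers, 2 were lowest among WT in library 1 as Hmox1 was (Vcam1 and Spic, named after their values were seen), and 12 were not. The part of these cells in the values of Hmox1 was not tested.

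**Figure D5:**
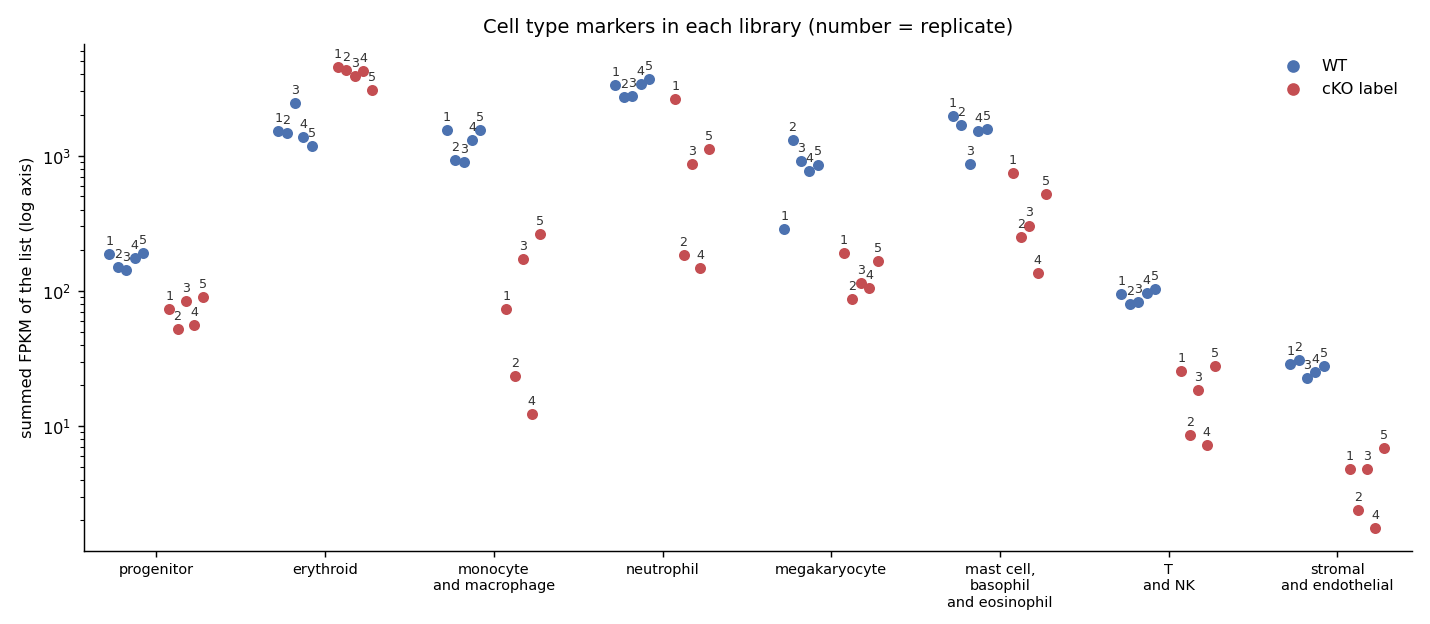
Summed FPKM (log axis) of lists of cell type markers in the 5 WT libraries (blue) and the 5 libraries labelled cKO (red), with replicate numbers. The erythroid sum is higher in each library labelled cKO, at 3074 to 4536 FPKM against 1190 to 2454 FPKM, and the monocyte and macrophage sum is lower, at 12.2 to 265.5 FPKM against 899.4 to 1559 FPKM.

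In the other marker lists given here, each marker fell or did not pass. Of 6 progenitor markers 5 fell, with Myb the most abundant (70.6 ± 8.08 to 38.7 ± 7.33 FPKM). Kit was at 45.9 ± 7.83 and 25.5 ± 5.57 FPKM, Cd34 at 25.6 ± 3.44 and 3.1 ± 2.33 FPKM and Hlf at 3.11 ± 0.319 and 0.428 ± 0.298 FPKM, each with no overlap. Of 12 neutrophil markers 4 fell and 8 did not pass, with Mpo the most abundant in WT. Their sum was 2733 to 3718 FPKM in WT and 2641, 183, 871.7, 148.6 and 1128 FPKM across the cKO-labelled libraries. Library 1 labelled cKO reached its sum by other markers than WT, with Mpo at 277.33 FPKM against at least 973.78 FPKM in WT, and S100a9, named after its values were seen, at 894.75 FPKM against at most 93.11 FPKM. The 8 that did not pass had log2 fold changes of both signs, 4 of them above 0. All 7 megakaryocyte markers fell (Ppbp the most abundant in WT), as did all 8 of mast cells, basophils and eosinophils (Prss34), 5 of 8 of T and NK cells (Nkg7) and 7 of 8 of stromal and endothelial cells (Pecam1). The part of any cell type in the falls of pathway genes such as Mgst1 and Gstm1 was not tested.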

How the data were processed

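Lin- bone marrow RNA was sequenced as 5 WT and 5 cKO libraries, and the authors trimmed reads, aligned them to GRCm39 and deposited FPKM per gene and library. The submitters' processing notes name cutadapt 1.9.1, HISAT2 2.0.1 and HTSeq 0.6.1. The annotation and lengths behind the FPKM are not given in the sources used here. All 10 columns were mapped to libraries by name. Of 28093 genes above 0 in some library, 27828 have a symbol in GENCODE M39.

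FPKM are not counts, and DESeq2 was therefore not run. In R 4.3.3, log2(FPKM + 0.1) was fitted using limma 3.58.1, by lmFit and then eBayes with its trend option, for the 18742 genes averaging 0.1 FPKM or more. The p-values are two-sided and were adjusted by Benjamini-Hochberg across those genes. The code was tested on simulated data. Depth was read from genes with a single transcript of 200 to 1500 bases, whose values of up to 20 fragments were whole within 0.2 for at least 96.0% in each library. A gene of 1000 bases at 3 fragments had 0.160 to 0.217 FPKM. For genes of several transcripts, fragment numbers are rough. The smallest chi-square per degree of freedom between libraries of a group was 7.82, so no pair was alike within sampling noise. Python 3.11.15 with scipy 1.17.1 gave the permutation test.

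The members and lists were chosen with earlier results of these data known. Named genes were the 10 members, Dhx9, Xist and Ddx3y, the most abundant gene (by the mean of all 10 libraries) and up to 3 called genes per direction of each pathway list, 9 genes whatever they did, the most abundant and the defining markers of each marker list, and the 5 genes most like Nfe2l2. Slc3a2, S100a9, Vcam1, Spic, Prdx4, Klf1, Cd14 and Itgam were named after their values were seen. The alternatives were pseudocounts of 0.01 and 1, the filter dropped or raised to 1 FPKM, 3 scalings, no trend, a replicate block, adjusted p alone, a covariate for Xist and each library left out. WT libraries 1 and 2 alone, counts of the 10 genes on adjusted p alone under each alternative and the wider promoter window were added after seeing the data.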

Additional observations from a re-analysis of the deposited data

Results flagged for a closer look

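In 7 of 130 groups of 5 values, the lowest or highest library was far from the others, its gap to the nearest being over 0.71 of the range of the group. Chance alone gives about 1 in 20, or 6.5 of 130. Library 1 labelled cKO was the lowest for Slc7a11 (0.16 FPKM, the others 1.97 to 2.69) and for Sod2 (12.84 FPKM, the others 15.45 to 16.41). WT library 3 was the highest for Prdx3 (155.23 FPKM, the others 108.64 to 121.86) and for the erythroid sum (2454 FPKM, the others 1190 to 1526), and the lowest for Prss34 (328.66 FPKM, the others 671.4 to 722.61). Nfe2l2 was highest in WT library 2 (40.92 FPKM, the others 37.41 to 38.16), and Gpx4 in library 2 labelled cKO (85.6 FPKM, the others 74.63 to 77.78). The cause of these values was not tested.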

How the results depend on the processing

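Of 1211 log2 fold changes, of 58 named genes under 21 alternatives, 1133 kept their direction and their side of the threshold on adjusted p, 59 (12 genes) no longer passed, 9 (4 genes) newly passed and 10 (5 genes) changed sign. Slc3a2, Prdx4, the genes most like Nfe2l2 and all markers but the most abundant of each list were not among the 58. Sign changes were those of Nfe2l2 (-0.015) and Taldo1 (-0.049) with quantile normalization, Taldo1 with an equal sum per library (-0.031) and with libraries left out (-0.024 to -0.0025 where the sign turned, 0.032 at most), Keap1 with median-ratio scaling (0.020), Xist (0.021) and Ddx3y (-0.025) with the Xist covariate, which takes up the same split, and Ddx3y (-0.025) with WT libraries 1 and 2 alone. Apart from Xist and Ddx3y, these genes did not pass as deposited.

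The count of the 10 genes called higher went from 0 to 1 (Nqo1) with median-ratio scaling, quantile normalization, the Xist covariate and WT libraries 1 and 2 alone, and to 6 on adjusted p alone. Leaving out each library gave 0 to 1 higher and 0 to 1 lower, and on adjusted p alone 5 to 6 higher and 0 to 1 lower. On adjusted p alone 4 of the 10 genes were higher with the Xist covariate and 4 with WT libraries 1 and 2 alone. All genes called were 356 higher and 1486 lower with a pseudocount of 1, which shrinks low genes, 462 and 1827 at a mean of at least 1 FPKM, where fewer genes are tested, 3138 and 5300 on adjusted p alone, 1581 higher with quantile normalization, 536 higher with WT libraries 1 and 2 alone, and 762 to 948 higher and 2892 to 3268 lower with each library left out. Other pathway genes called lower were 8 with a pseudocount of 1, and on adjusted p alone 34 were higher and 28 lower. The cause was not tested except where the setting itself gives it.

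Same-numbered libraries had correlated deviations of 0.117, 0.0258, -0.0103, -0.00304 and 0.0929, so the numbers were not taken to pair the mice, and not every library was most like its own number. With the replicate block, 857 genes were called higher and 3107 lower. Of the named pathway genes, Nfe2l3, Cbr3 and Me1 had at most 3 fragments in some library.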
